A study of Mus musculus with 8 samples.

Results

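The monocyte-attracting chemokines and receptors examined here are 9 genes of the 56749 features in the count matrices, chosen by symbol. They comprise 6 ligands (Ccl2, Ccl7, Ccl8, Ccl6, Ccl9 and Cxcl16) and 3 receptors (Ccr1, Ccr2 and Cx3cr1), and all were found in each of the 8 libraries. The study measured nuclear RNA of snap-frozen visceral white adipose tissue from 8 mice in 4 groups of 2. All mice carried mCherry, a red fluorescent protein, at 1 copy of the locus of p21, the cell-cycle inhibitor encoded by Cdkn1a. Mice of genotype p21+/mCherry ate a standard diet (SD, mice rep144 and rep146) or a high-fat diet (HFD, mice rep128 and rep129). Mice of genotype p21+/mCherry-Tert (mice rep134 and rep136) and p21+/mCherry-TertCi (mice rep138 and rep140) ate the high-fat diet. These groups are called mCherry SD, mCherry HFD, Tert HFD and TertCi HFD. Tert encodes the catalytic subunit of telomerase, and the p21 promoter drives the inserted gene in every cell type that uses it. Age, sex and the meaning of TertCi are not given in the sources used here. The series' design text names the stromal vascular fraction and p21+/- mice on the high-fat diet where the sample labels name whole tissue and p21+/mCherry, and the labels were followed.

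Chemokines are small secreted proteins that bind receptors coupled to G proteins and steer white blood cells along a gradient. Ccl2 and Ccl7 bind Ccr2, which classical monocytes use to leave the bone marrow and enter inflamed tissue, and the Ccl2-Ccr2 pair is well known for macrophage build-up in obese fat. Ccl6 and Ccl9 are mouse ligands of Ccr1, and Ccl8 is a further CC ligand that resident macrophages make in several mouse tissues. Cxcl16 is a membrane-bound ligand of Cxcr6, and Cx3cr1, the receptor of fractalkine (Cx3cl1), marks patrolling monocytes and many resident macrophages.

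Most of the members are neighbours in the genome. Ccl2, Ccl7 and Ccl8 lie in 1 run of chemokine genes on chromosome 11 with Ccl11, Ccl12 and Ccl1, and Ccl9 and Ccl6 lie in another run there between Ccl5 and Ccl3. Ccr1 and Ccr2 lie in a run of receptor genes on chromosome 9. RefSeq's table for build GRCm38.p6 held an upstream sequence for 6 of the members and none was matched for Ccl2, Ccl7 and Cxcl16. The 250 bases before the start are shown for Ccl8, Ccl9 and Ccl6, the only ligands with a sequence in that table. Capitals mark a match to a motif, written 5′ to 3′ on the gene's strand. The searched motifs were GAGGAAG (PU.1-type), TGANTCA (AP-1-type), GGGA and TTTCC with 1 base between (kappa B-type), GAAA and GAAA with 2 bases between (IRF-type) and TTCNNNGAA (STAT-type), each on both strands. The Ccl8 window is chr11:82114935-82115184 on the plus strand, the Ccl9 window chr11:83578637-83578886 and the Ccl6 window chr11:83593088-83593337, both on the minus strand.
Ccl8: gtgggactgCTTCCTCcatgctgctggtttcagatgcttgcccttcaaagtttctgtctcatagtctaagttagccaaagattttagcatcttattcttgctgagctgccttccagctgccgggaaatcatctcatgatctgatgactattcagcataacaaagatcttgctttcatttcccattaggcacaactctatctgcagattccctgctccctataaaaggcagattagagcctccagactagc
Ccl9: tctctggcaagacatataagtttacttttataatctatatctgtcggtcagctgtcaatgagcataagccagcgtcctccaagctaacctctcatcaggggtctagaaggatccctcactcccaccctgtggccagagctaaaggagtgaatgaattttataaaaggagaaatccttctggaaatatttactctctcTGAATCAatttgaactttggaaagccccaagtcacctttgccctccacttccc
Ccl6: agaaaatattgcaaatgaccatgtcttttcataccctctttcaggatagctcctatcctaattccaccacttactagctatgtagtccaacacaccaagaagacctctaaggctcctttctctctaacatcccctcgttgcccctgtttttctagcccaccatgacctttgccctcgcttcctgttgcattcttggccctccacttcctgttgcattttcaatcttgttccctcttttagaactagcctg
The Ccl8 window held 1 PU.1-type match, on the opposite strand, whose first base lay at -241 from the start, and no match overlapped another. Of all 32851 windows of that length in the table, 10.6% held that motif. The Ccl9 window held 1 AP-1-type match at -53, a motif in 6.75% of all windows. The Ccl6 window and those of Ccr1, Ccr2 and Cx3cr1 held none of the motifs. The kappa B-type, IRF-type and STAT-type motifs, in 0.356%, 2.98% and 7.02% of all windows, were in none of the 6. These matches are descriptions of letters, and no readout of binding was measured.

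The libraries held 23378488 to 139749876 unique molecular identifiers (UMIs, which count RNA molecules), of which 34.0 to 53.7% lay in barcodes called nuclei. After 32 to 504 barcodes per library scored as doublets were removed, 30209 nuclei remained, 1978 to 7433 per mouse. Median UMIs per nucleus ran from 1669 in Tert HFD mouse rep136 to 7097 in Tert HFD mouse rep134, so these groups' libraries differ in depth. The ribosomal RNA feature Rn18s-rs5 stood at 2888 and 5870 CPM (UMIs scaled to 1000000 per library) in mCherry HFD, the lowest of the 8 libraries, 55514 and 38623 CPM in mCherry SD, 10308 and 87986 CPM in Tert HFD, and 33031 and 55528 CPM in TertCi HFD. It was thus lowest in the group that all 3 contrasts share, and its part in their results was not tested. Libraries shared 0 to 15 barcodes in any pair. Adipoq (11.7 to 102 CPM) and Plin1, Pdgfra and Mrc1 were present in every library. Over all barcodes Tert stood at 2.01 to 2.76 CPM in Tert HFD and TertCi HFD and at 3.27 to 3.98 CPM in both mCherry groups, and mCherry had 25 UMIs in all. Neither feature therefore checks the genotype labels, and every genotype direction holds for the libraries as labelled. Nuclei were clustered without the members and named by marker genes, which gave macrophage-like, progenitor-like, adipocyte-like, endothelial-like and further classes. Macrophage-like nuclei made up 4.36 and 5.74% of nuclei in mCherry SD, 50.7 and 49.5% in mCherry HFD, 27.6 and 29.9% in Tert HFD, and 20.4 and 16.1% in TertCi HFD. No cluster carried enough monocyte markers to be named monocyte-like, so circulating monocytes were not resolved.

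In mCherry HFD most UMIs of the ligands Ccl8, Ccl6 and Ccl9 and of the receptor Ccr1 lay in macrophage-like nuclei, whose perivascular kind is marked by Lyve1, Cd163 and Timd4. There, macrophage-like nuclei held 42.3 and 37.5% of all UMIs but 69.9 and 63.8% of the Ccl8 UMIs, 67.0 and 59.5% of Ccl6, 67.8 and 60.6% of Ccl9, and 69.8 and 58.9% of Ccr1. For Ccl2 (37.9 and 37.2%) and Ccl7 (33.4 and 30%) their part in these mCherry HFD libraries did not exceed that of all UMIs, but it did in some others. It was 4.88 and 12.7% for Ccl7 in mCherry SD, and 22.5% for Ccl2 and 27.0% for Ccl7 in Tert HFD mouse rep134, where macrophage-like nuclei held 19.1% of all UMIs. In mCherry SD, where they held 2.53 and 3.33% of all UMIs, they held 13.5 and 19.6% of Ccl6 and 17.5 and 23.96% of Ccr1. Most of the UMIs there lay in nuclei of mixed markers, with 68.9 and 50.4% of Ccl6, 71.2 and 54.2% of Ccr1, and 69.0 and 55.8% of all UMIs. In TertCi HFD mouse rep140 mixed nuclei likewise held 48.4% of Ccl8, against 29.0% in macrophage-like ones. In both mCherry HFD libraries the other 7 members exceeded the macrophage-like part of all UMIs, a description across classes of the same nuclei that carries no test.

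**Figure D1:**
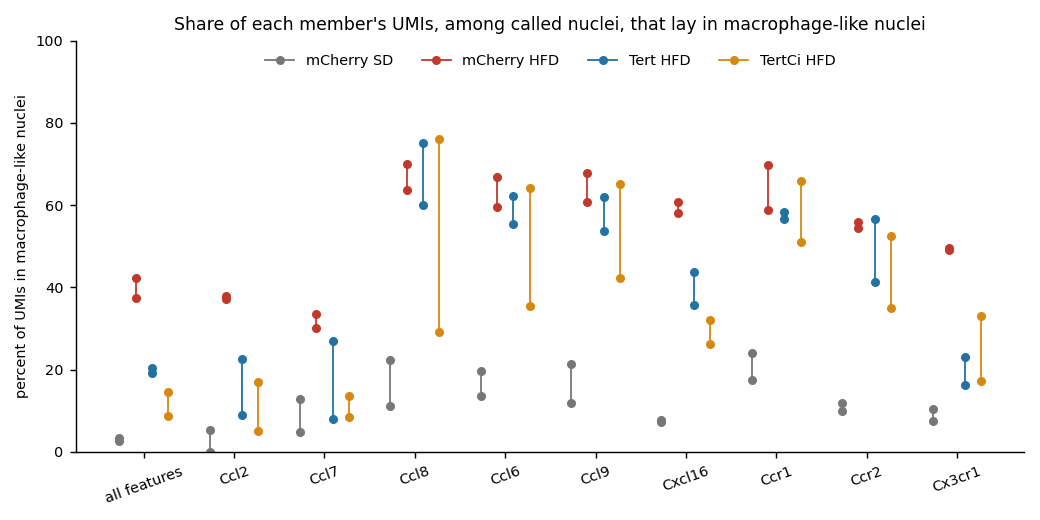
Share of each member's UMIs in called nuclei that lay in macrophage-like nuclei (percent, y axis) for each gene (x axis), by group, with the first and second library of a group as separate points. In mCherry HFD the points of Ccl8, Ccl6, Ccl9 and Ccr1 sit between 58.9 and 69.9%, and those of Ccl2 and Ccl7 between 30 and 37.9%.

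Free RNA can add to each of these levels. Barcodes of 100 UMIs or fewer, which hold mostly RNA that leaked from other nuclei or from cytoplasm, carried Ccl2 at 8.44 and 25 CPM in mCherry SD, 60.4 and 98.8 in mCherry HFD, 40.8 and 15.7 in Tert HFD, and 7.97 and 8.71 in TertCi HFD. The level of Ccl2 in macrophage-like nuclei was below that of the same library's near-empty barcodes in all 8 libraries, and that of Ccl7 was above it in 2. Progenitor-like nuclei, the Pdgfra-bearing stromal precursors of fat, exceeded it for Ccl2 in 3 and for Ccl7 in 4 of 8. By contrast Ccr1 and Cx3cr1 in macrophage-like nuclei exceeded the free level in 8 of 8 libraries, Ccr2 in 7, Ccl6, Ccl9 and Ccl8 in 6, and Cxcl16 in 5. The libraries below it were both of mCherry HFD for Ccl8 (30.1 and 51.1 CPM against a free level of 30.3 and 87.9), Ccl6 (195 and 152 against 198 and 261) and Ccl9 (92.0 and 86.5 against 126 and 160). For Cxcl16 they were both of mCherry HFD and mCherry SD mouse rep146, and for Ccr2 mCherry HFD mouse rep129. In perivascular macrophage-like nuclei Ccl8 exceeded the free level in 8 of 8. Ccl2 and Ccl7 could therefore not be placed in a source cell type by these counts.

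The medians that follow are over the libraries with at least 20 nuclei of a class, which leaves the mCherry SD libraries, at 7 and 9 nuclei, out of the lipid-associated class. Ordered by that median, Ccl2 was highest in progenitor-like nuclei (19.5 CPM, lowest 6.32, highest 40.6) and stood at 9.78 CPM (0 to 24.9) in macrophage-like nuclei. Ccl7 was also highest in progenitor-like nuclei, at 11.4 CPM (5.33 to 13.2) against 5.39 CPM (1.85 to 25.004). The ranges overlapped in both cases. Ccl8 was highest in perivascular macrophage-like nuclei at 13.7 CPM (3.10 to 185), beside 10.9 (0 to 17.99) in dendritic-like nuclei, which reached the minimum of 20 nuclei in 3 libraries, and 7.66 (2.57 to 51.1) in macrophage-like nuclei as a whole. It was low in lipid-associated macrophage-like nuclei, the Trem2 and Gpnmb kind of obese fat, at 0.320 CPM (0 to 15.9). Ccl6 ran from 195 CPM (97.1 to 335) in perivascular macrophage-like nuclei and 102 CPM (44.0 to 154) in lipid-associated ones to 7.37 CPM (0 to 25.3) in progenitor-like nuclei. Ccl9 was at 78.0 (32.9 to 105), 68.3 (34.9 to 88.7) and 5.25 CPM (1.12 to 18.1) in the same 3 classes. Endothelial-like nuclei held Ccl6 at 106 CPM (46.0 to 218), above the lipid-associated median, and Ccl9 at 38.7 CPM (7.85 to 58.8). Dendritic-like nuclei held them at 72.0 CPM (17.8 to 140) and 41.8 CPM (0 to 45.0). Cxcl16 had 17.8 CPM (0 to 29.1) in dendritic-like, 15.04 CPM (7.73 to 23.8) in lipid-associated macrophage-like, 11.9 (0 to 20.4) in mesothelial-like and 9.83 (6.93 to 21.1) in perivascular macrophage-like nuclei, and the ranges overlapped. Within mCherry HFD Cxcl16 was at 29.1 and 0 CPM in dendritic-like and 23.8 and 19.4 CPM in lipid-associated macrophage-like nuclei.

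Among the receptors, Ccr2 stood highest of the whole classes in dendritic-like nuclei, at 371 and 360 CPM in mCherry HFD and 399 CPM in TertCi HFD mouse rep138. These values did not overlap those of macrophage-like nuclei, whose median was 94.7 CPM (73.0 to 158). A subcluster of macrophage-like nuclei, described below, stood higher, at 565 CPM over all libraries. Ccr1 was at 37.2 CPM (6.93 to 60.3) in perivascular and 12.0 CPM (3.88 to 14.7) in lipid-associated macrophage-like nuclei, and at 1.61 CPM (0 to 3.51) in progenitor-like nuclei. Cx3cr1 showed no clear receiving class, with 13.8 CPM (2.19 to 20.3) in endothelial-like and 10.6 CPM (3.98 to 25.6) in macrophage-like nuclei and 5.75 CPM (2.52 to 19.2) in adipocyte-like nuclei, and these ranges overlapped. The endothelial-like class also held the 12 macrophage markers, at 4939 to 5056 CPM in sum in mCherry HFD against 8242 to 9068 CPM in macrophage-like nuclei and at 4457 to 6981 against 13264 to 16365 CPM in TertCi HFD, and the part of this signal in its member levels was not tested.

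The diet comparison asked how the members differed between mCherry mice on the high-fat and the standard diet. Over all called nuclei, 7 of the 9 members were higher in mCherry HFD by edgeR's quasi-likelihood test at a Benjamini-Hochberg adjusted p under 0.05, against 40.6% of all 21035 genes tested (22.3% higher), and none was lower. Their median log2 fold change was 1.42, against 0.05 over all genes. In sums over all nuclei, more cells of a type and more RNA per cell cannot be told apart. The p-values measure the spread between these mice only.

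Ccl8 showed the largest of these changes, with 0.585 and 1.12 CPM in mCherry SD, 18.2 and 30.04 CPM in mCherry HFD, with 9.77 and 1.08 in Tert HFD and 1.48 and 2.12 in TertCi HFD. Both mCherry HFD libraries stood above the other 6. The log2 fold change with diet was 4.33 (edgeR adjusted p = 0.00576, SE 0.80), and it was not called without mCherry SD mouse rep144, at 4.03. The Ccr1 ligand Ccl9 stood at 13.6 and 15.4 CPM in mCherry SD, 57.4 and 53.4 in mCherry HFD, 30.1 and 11.4 in Tert HFD, and 15.1 and 12.5 in TertCi HFD. Its diet change of 1.48 (edgeR adjusted p = 0.00578, SE 0.29) held in each of the 8 fits with a mouse removed. Ccl6, its neighbour, stood at 25.1 and 42.5, 123 and 96.0, 66.2 and 23.95, and 34.8 and 23.9 CPM in the same order. It rose by 1.26 (edgeR adjusted p = 0.0265, SE 0.36), which was not called without mCherry SD mouse rep144 (0.97), mCherry HFD mouse rep128 (1.10) or mouse rep129 (1.38).

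Ccl2 stood at 3.84 and 10.0 CPM in mCherry SD, 27.7 and 22.5 in mCherry HFD, 15.9 and 7.58 in Tert HFD, and 2.82 and 5.41 in TertCi HFD. The diet change of 1.42 (edgeR adjusted p = 0.0427, SE 0.47) was the least stable of the 7. It was not called without mCherry SD mouse rep144 (0.93), mCherry HFD mouse rep128 (1.29) or rep129 (1.51), or Tert HFD mouse rep134 (1.41) or rep136 (1.39). Cxcl16 stood at 3.38 and 2.87, 16.6 and 11.4, 9.12 and 3.79, and 3.32 and 3.15 CPM in the same order of groups. It rose by 1.71 (edgeR adjusted p = 0.00682, SE 0.34), which was not called without mCherry HFD mouse rep128, at 1.43. Ccl7 overlapped between the mCherry groups, at 2.67 and 6.53 CPM in mCherry SD, 8.44 and 6.49 in mCherry HFD, 8.68 and 6.77 in Tert HFD, and 1.99 and 5.69 in TertCi HFD, and its log2 fold change with diet was 0.26 (adjusted p = 0.716 by edgeR).

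The receptor Ccr2 stood at 20.9 and 27.4 CPM in mCherry SD, 69.2 and 57.2 in mCherry HFD, 52.1 and 26.3 in Tert HFD, and 42.3 and 38.7 in TertCi HFD. It rose with diet by 0.94 (edgeR adjusted p = 0.0104, SE 0.21), which was not called without mCherry SD mouse rep144 (0.81) or mCherry HFD mouse rep128 (0.83). Cx3cr1, at 5.20 and 2.79, 17.7 and 19.5, 8.74 and 5.01, and 4.69 and 5.21 CPM, rose by 1.76 (edgeR adjusted p = 0.00687, SE 0.35), and the call held in each of the 8 fits with a mouse removed. Ccr1, at 5.20 and 7.98 CPM in mCherry SD and 13.6 and 13.2 in mCherry HFD, did not overlap between these groups but was not called (0.58, adjusted p = 0.437 by edgeR). Fold changes are on counts scaled by edgeR's TMM factors and are smaller here than the ratios of the CPM. Near-empty barcodes lay higher in both mCherry HFD than in both mCherry SD libraries for 8 members, all but Ccl7, as did 51.2% of the 15411 genes tested there. By edgeR 6 of the 9 members were called in these barcodes, against 34.7% of genes (19.7% higher), and their part in the result was not tested.

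**Figure D2:**
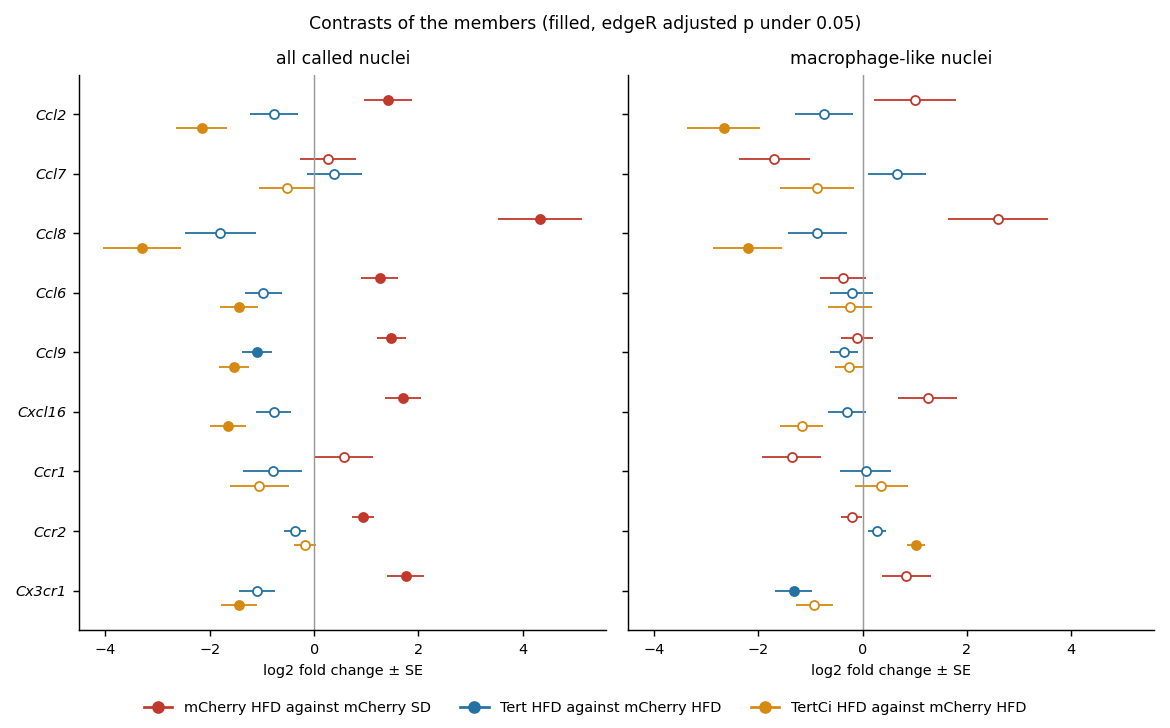
Log2 fold change of each member in the diet, Tert and TertCi contrasts (x axis, with its standard error as a bar), for all called nuclei and for macrophage-like nuclei, with filled points where the edgeR adjusted p was under 0.05. In the diet contrast 7 points are filled over all nuclei and 0 in macrophage-like nuclei.

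Within macrophage-like nuclei as a class none of the 9 members was called with diet by edgeR's quasi-likelihood test, against 21.2% of the 13732 genes tested, with 4 at an unadjusted p under 0.05 and 1 called by DESeq2. Ccl8 was the nearest, at 2.57 and 7.50 CPM in mCherry SD and at 30.1 and 51.1 CPM in mCherry HFD (log2 fold change 2.60, edgeR adjusted p = 0.0899, SE 0.95), with groups that did not overlap. Ccr1 went the other way, from 36.0 and 57.5 to 22.4 and 20.8 CPM (-1.36, edgeR adjusted p = 0.12, SE 0.56). Ccl6 (133.7 and 250 CPM against 195 and 152), Ccl9 (64.3 and 98.8 against 92.0 and 86.5) and Ccr2 (97.7 and 81.3 against 91.6 and 83.0) overlapped between the diets. The mCherry SD values rest on 111 and 172 nuclei, and Ccl2 had 0 UMIs in mouse rep144, for which 3 counts would be 7.71 CPM. The diets also differ in the clusters that make up the class: mCherry SD nuclei lay in cluster 13 (93 and 142) and cluster 14 (18 and 30), with 0 in clusters 20, 21 and 22, which hold most of the mCherry HFD nuclei. The part of this make-up in the diet values was not tested. The macrophage markers ran from 18680 to 20997 CPM in sum for mCherry SD and 8242 to 9068 CPM in mCherry HFD, and the part of this shift in the members' values was not tested. The fit shares its estimate of spread with the Tert HFD mice, which differed from each other. Without Tert HFD mouse rep134, Ccl8 (2.64), Ccr1 (-1.31) and Cxcl16 (1.31) passed edgeR's threshold. Without mouse rep136, Ccl8 (2.62), Ccr1 (-1.33), Cxcl16 (1.29) and Ccl7 (-1.67) did. The share of all genes called in these fits is not given, so they do not show whether the members or the whole fit changed.

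**Figure D3:**
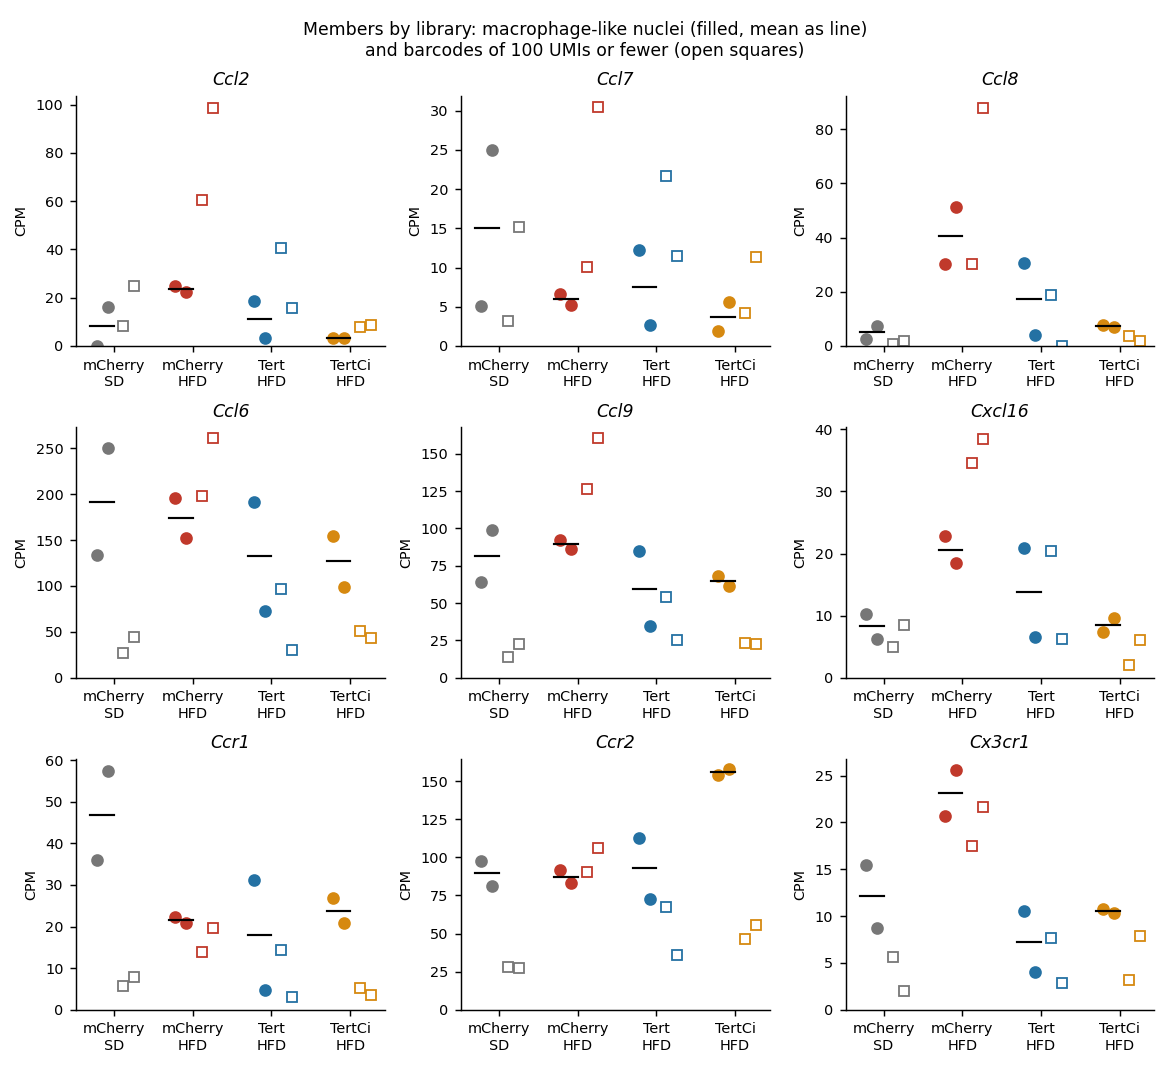
Level of each member (CPM, 1 panel per gene) in macrophage-like nuclei of each library (filled points, with a line at the group mean) and in barcodes of 100 UMIs or fewer of the same library (open squares). For Ccl2 the open squares lie above the filled points in all 8 libraries, and for Ccr1 and Cx3cr1 they lie below in all 8.

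Perivascular macrophage-like nuclei were the class in which Ccl8 changed in every contrast against mCherry HFD. Its level there was 3.10 and 9.78 CPM in mCherry SD (7 UMIs in 225 nuclei), 126 and 185 CPM in mCherry HFD, 45.6 and 10.4 CPM in Tert HFD, and 13.1 and 14.4 CPM in TertCi HFD. No other library came near the mCherry HFD values, and Tert HFD mouse rep136 lay between the mCherry SD and TertCi HFD values. The log2 fold change was 4.21 with diet (edgeR adjusted p = 0.00107, SE 0.61), -2.04 for Tert HFD against mCherry HFD (edgeR adjusted p = 0.00396, SE 0.36) and -3.38 for TertCi HFD against mCherry HFD (edgeR adjusted p = 0.000334, SE 0.43). All 3 were called in each of the 8 fits with a mouse removed and under the other settings run. The last 2 contrasts share their mCherry HFD controls. Ccl8 was the only 1 of 9 members called with diet in this class, where 14.8% of 8841 genes were called (8.22% higher), and the only one called for Tert (11.3%, 7.58% lower).

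Different subclusters made up this class in the groups. In mCherry HFD 731 and 257 of the perivascular nuclei lay in subcluster 3, which Ccl8 itself helped to characterise, at 125 and 170 CPM. In the other groups nearly all lay in subcluster 0, where Ccl8 stood at 3.12 and 3.37 CPM in mCherry SD, 44.4 and 8.73 in Tert HFD, and 13.2 and 12.96 in TertCi HFD. The few mCherry HFD nuclei in subcluster 0, 7 and 10 of them, carried 13 and 21 Ccl8 UMIs, or 308 and 547 CPM. In Tert HFD mouse rep134 the 41 nuclei of subcluster 3 held Ccl8 at 58.8 CPM. The mCherry HFD levels in subcluster 0 rest on 7 and 10 nuclei, fewer than the minimum set for a class. The subcluster levels are values with no test, and the part of this make-up in the Ccl8 results was not tested. Thinned to 1000 UMIs each, 10.4 and 12.0% of perivascular nuclei in mCherry HFD had a Ccl8 UMI (exact Clopper-Pearson 95% intervals 8.32 to 12.9 and 8.34 to 16.5, which cover counting error only), against 0 of 92 and 0 of 133 in mCherry SD, 3.88 and 1.42% in Tert HFD, and 1.01 and 1.21% in TertCi HFD. Unthinned shares were 33.6 and 26.2% in mCherry HFD. Progenitor-like nuclei, which should lack Ccl8, had 0.404 and 0.858% thinned and 3.56 and 2.79% unthinned in mCherry HFD, at median depths of 6847 and 2790 UMIs against 6668 and 2837.

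**Figure D4:**
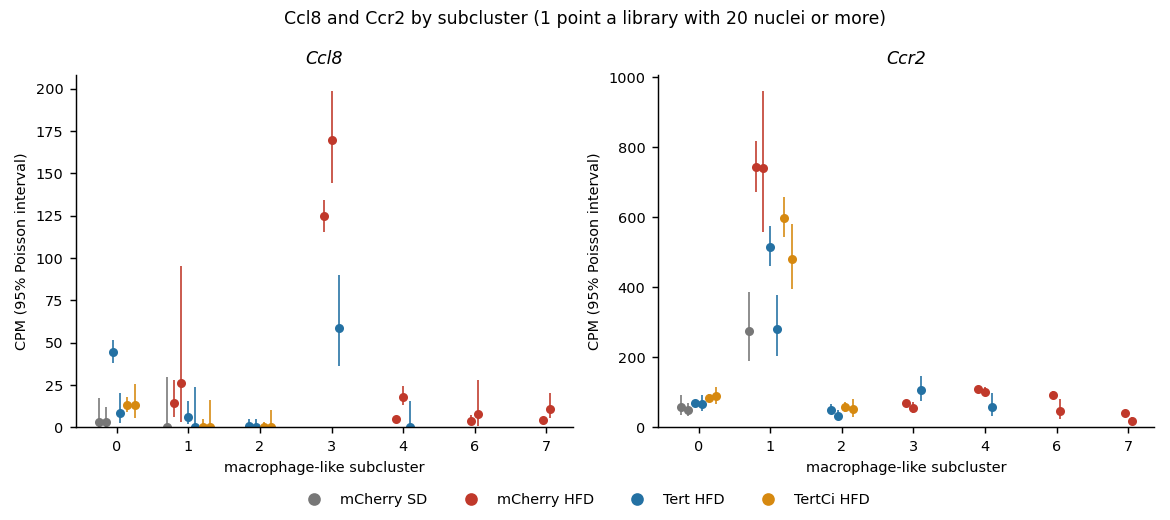
Ccl8 and Ccr2 levels (CPM, with exact Poisson 95% intervals as bars) by subcluster of macrophage-like nuclei and library, for libraries with at least 20 nuclei of a subcluster. Ccl8 is highest in subcluster 3 of the mCherry HFD libraries, at 125 and 170 CPM, and Ccr2 is highest in subcluster 1 in every group shown.

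The Tert comparison asked how the members differed between Tert HFD and mCherry HFD mice. Over all nuclei 1 of 9 members was called by edgeR, against 20.7% of genes (10.3% lower), and the members' median log2 fold change was -0.80, against -0.05 over all genes. That member was Ccl9, at -1.10 (edgeR adjusted p = 0.0322, SE 0.28), and it was not called without mCherry HFD mouse rep128 (-1.08) or rep129 (-1.10), Tert HFD mouse rep136 (-0.68) or TertCi HFD mouse rep138 (-1.09) or rep140 (-1.08). By CPM every ligand but Ccl7 and every receptor lay lower in both Tert HFD than in both mCherry HFD libraries, as did 51.2% of all 21035 genes tested. Cx3cr1 (-1.09, adjusted p = 0.0573), Ccl6 (-0.98, adjusted p = 0.0845) and Ccl8 (-1.80, adjusted p = 0.0962) did not pass edgeR's threshold, and Ccl2 (-0.77, adjusted p = 0.25) was further from it. DESeq2 called 4 of the 9, a count given without the share of all genes that it called. The Tert HFD mice differed from each other: mouse rep136 was below mouse rep134 for all 9 members. Leaving out mouse rep134 leaves only mouse rep136, the library of lowest depth, assumed to vary like the other groups. In that fit Ccl8 changed by -3.92, Ccr1 by -2.49, Ccl6 by -1.64, Cxcl16 by -1.34 and Ccr2 by -0.72. Without mCherry SD mouse rep144 or rep146, Cx3cr1 was also called, at -1.07 in both fits.

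Within macrophage-like nuclei as a class Cx3cr1 was lower in Tert HFD. It stood at 20.7 and 25.6 CPM in mCherry HFD, 10.6 and 3.98 CPM in Tert HFD, 10.7 and 10.4 CPM in TertCi HFD, and 15.4 and 8.75 CPM in mCherry SD, so the mCherry HFD libraries stood above all others. The log2 fold change for Tert was -1.32 (edgeR adjusted p = 0.0202, SE 0.35), the 1 call among 9 members against 18.4% of genes (10.3% lower). It was not called without mCherry HFD mouse rep128 (-1.52) or rep129 (-1.23) or Tert HFD mouse rep136 (-1.01), whose nuclei held 6 Cx3cr1 UMIs. Without mouse rep134, which leaves mouse rep136 alone in its group, Ccl2 changed by -2.59, Ccl8 by -3.08, Ccl9 by -1.14, Ccr1 by -1.98 and Cxcl16 by -1.41. The same gene was called in lipid-associated macrophage-like nuclei, at 21.7 and 25.9 CPM in mCherry HFD, 7.03 and 5.17 in Tert HFD, and 9.90 and 12.9 in TertCi HFD. The change for Tert there was -1.79 (edgeR adjusted p = 0.0223, SE 0.38), 1 of 7 members tested against 7.62% of genes (5.25% lower). It was not called without mCherry HFD mouse rep128 (-1.92) or rep129 (-1.68), with doublets kept (-1.05), with a class per nucleus (-1.69) or at 1000 UMIs in every library with a class per nucleus (-1.37). Without Tert HFD mouse rep134, which leaves mouse rep136 alone in its group, Ccl2 changed by -3.96, Ccl6 by -1.35 and Ccl9 by -1.01. For TertCi HFD 0 of 7 were called by edgeR or DESeq2 in that class, against 10.0% of genes, with 3 at an unadjusted p under 0.05. Without Tert HFD mouse rep134 or rep136 Ccl2 (-2.58 and -2.57) and Ccl6 (-0.72 and -0.70) were called there for TertCi. Ccl8 had 98 and 56 UMIs in mCherry HFD in that class and 1, 0, 0 and 0 in the other HFD libraries. It passed the filter and was called in both contrasts without mCherry HFD mouse rep128, with the lone mouse rep129 assumed to vary like the other groups, and is given as counts only.

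Different clusters made up these classes in the groups. Of the mCherry HFD nuclei 1964 and 570 lay in cluster 20, 902 and 516 in cluster 21 and 736 and 257 in cluster 22, where Cx3cr1 stood at 17.2, 30.3 and 14.9 CPM over all libraries. Tert HFD nuclei lay mostly in cluster 13 (574 and 372) and cluster 14 (241 and 567). In cluster 14, which held 142 and 70 nuclei of mCherry HFD, Cx3cr1 stood at 44.2 and 80.2 CPM there and at 12.3 and 4.55 CPM in Tert HFD. Lipid-associated nuclei of mCherry HFD lay in subclusters 4, 6 and 7, at 28.1, 23.3 and 13.9 CPM over all libraries, with 7 and 10 of them in subcluster 2. Most of Tert HFD (165 and 475) and TertCi HFD (278 and 89) lay in subcluster 2, where Cx3cr1 stood at 6.07 CPM and Rn18s-rs5 was among the leading genes. The part of this make-up in the Cx3cr1 results was not tested. The free level of Cx3cr1 was 17.5 to 21.7 CPM in mCherry HFD and 2.86 to 7.65 CPM in Tert HFD. Macrophage-like nuclei stood at a mean of 1.18 times it in mCherry HFD and 1.39 times in Tert HFD. For lipid-associated nuclei these mean ratios were 1.22 and 1.36. The part of free RNA in the Cx3cr1 results was not tested either.

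Other members moved unevenly between the Tert HFD mice in macrophage-like nuclei. Ccr1 stood at 31.1 CPM in mouse rep134 and 4.64 CPM in mouse rep136, on either side of mCherry HFD (22.4 and 20.8). Ccl6 stood at 191 and 73.0 CPM, and Ccl9 at 84.7 and 34.5. Mouse rep136 was the library with the lowest depth and the highest Rn18s-rs5 level, and their part in these values was not tested.

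The TertCi comparison gave the larger set of calls. Over all nuclei 6 of 9 members were lower in TertCi HFD than in mCherry HFD by edgeR, against 35.2% of genes (19.3% lower), with a median log2 fold change of -1.44 against -0.10 over all genes. Ccl8 changed by -3.30 (SE 0.74, adjusted p = 0.0143), Ccl2 by -2.16 (SE 0.48, adjusted p = 0.0129) and Cxcl16 by -1.65 (SE 0.34, adjusted p = 0.00916), all by edgeR. Ccl9 changed by -1.54 (SE 0.29, adjusted p = 0.00589), Ccl6 by -1.44 (SE 0.36, adjusted p = 0.0193) and Cx3cr1 by -1.44 (SE 0.35, adjusted p = 0.0159) in the same edgeR fit. By CPM both TertCi HFD mice were below both mCherry HFD mice for all 9 members, as they were for 62.5% of all genes tested. Ccr2 was not called (-0.18, adjusted p = 0.533 by edgeR) although its mean fell from 63.2 to 40.5 CPM, and Ccr1 (-1.05) and Ccl7 (-0.51) were not called either (adjusted p = 0.181 and 0.48 by edgeR).

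Single mice decided several of these calls. Without mCherry HFD mouse rep128 the count fell to 2, with Ccl2 at -2.02, Ccl6 at -1.28, Cxcl16 at -1.37 and Cx3cr1 at -1.54 no longer called. Without mouse rep129, Ccl8 (-2.83) and Cx3cr1 (-1.32) were not called. Without TertCi HFD mouse rep138 the count was 1, with Ccl2 at -1.67, Ccl8 at -2.96, Ccl6 at -1.65, Cxcl16 at -1.60 and Cx3cr1 at -1.29, and without mouse rep140 it was 1, with Ccl8 at -3.60, Ccl6 at -1.23, Ccl9 at -1.45, Cxcl16 at -1.65 and Cx3cr1 at -1.56. No direction changed among these 6. Without Tert HFD mouse rep134 or rep136, Ccr1 was also called, at -1.04 and -1.03. The share of all genes called in each of these fits is not given.

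Within macrophage-like nuclei 3 of 9 members were called for TertCi, against 24.9% of genes, with Ccl2 and Ccl8 lower (13.6% of genes lower) and Ccr2 higher (11.2% higher). Ccl2 stood at 24.9 and 22.3 CPM in mCherry HFD and 3.30 and 3.19 CPM in TertCi HFD, with 0 and 16.3 CPM in mCherry SD and 18.7 and 3.32 CPM in Tert HFD. Its change was -2.66 (edgeR adjusted p = 0.0241, SE 0.71), and it was not called without mCherry HFD mouse rep128 (-2.60) or rep129 (-2.77) or TertCi HFD mouse rep138 (-2.72) or rep140 (-2.64). As given above, macrophage-like Ccl2 lay below the free level, which fell from 60.4 and 98.8 CPM to 7.97 and 8.71 CPM in the same libraries. Its part in this result was not tested. Ccl8 went from 30.1 and 51.1 to 7.83 and 7.18 CPM, a change of -2.201 (edgeR adjusted p = 0.0446, SE 0.66). The free level of Ccl8 was 30.3 to 87.9 CPM in mCherry HFD and 1.74 to 3.72 CPM in TertCi HFD. Macrophage-like nuclei stood at a mean of 0.786 times it in mCherry HFD and 3.11 times in TertCi HFD. The part of free RNA in the Ccl8 change was not tested. The Ccl8 call held only without Tert HFD mouse rep134 or rep136 among the fits with a mouse removed. It was not called without mCherry SD mouse rep144 (-2.19) or rep146 (-2.18), mCherry HFD mouse rep128 (-2.58) or rep129 (-1.83), or TertCi HFD mouse rep138 (-2.31) or rep140 (-2.15), nor with doublets kept (-2.05) or with the members in the clustering (-2.03). Without Tert HFD mouse rep134 or rep136, Cxcl16 (-1.24 and -1.17) and Cx3cr1 (-0.98 and -0.91) were also called, in fits whose share of all genes called is not given.

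Ccr2 was the only member called higher in a contrast against mCherry HFD. In macrophage-like nuclei it stood at 97.7 and 81.3 CPM in mCherry SD, 91.6 and 83.0 in mCherry HFD, 113 and 73.0 in Tert HFD, and 154 and 158 in TertCi HFD, whose libraries stood above the other 6. The change for TertCi was 1.03 (edgeR adjusted p = 0.00144, SE 0.18) and was called in each of the 8 fits with a mouse removed. It depended on which nuclei were counted as macrophage-like. It was 0.47 (adjusted p = 0.0862) when the members could enter the clustering, 0.29 (adjusted p = 0.275) with doublets kept, 0.50 (adjusted p = 0.202) at 1000 UMIs in every library with a class per nucleus, and 0.57 (adjusted p = 0.0414) with a class per nucleus alone, all by edgeR. The share of macrophage-like nuclei with a Ccr2 UMI, thinned to 1000 UMIs, was 5.41 and 2.91% in mCherry SD, 6.61 and 5.75% in mCherry HFD, 9.38 and 5.84% in Tert HFD, and 12.5 and 12.9% in TertCi HFD. Unthinned it was 18.9 and 18.6, 21.7 and 12.4, 24.5 and 8.60, and 25.3 and 28.8%. Progenitor-like nuclei, which should lack the receptor, had 0.375 to 1.29% thinned over the 8 libraries, and their median depth was 3782 and 3947 UMIs in TertCi HFD against 3724 and 3550 for macrophage-like nuclei there.

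Among the subclusters of macrophage-like nuclei Ccr2 was highest in subcluster 1, which was left unnamed and is led by Cd226, Thsd4 and Skint3. It had 2 monocyte, 2 perivascular and 1 lipid-associated markers raised, below the 3 needed for a name, and its marker score was highest for monocyte. Its 559 nuclei held Ccr2 at 565 CPM (1442 UMIs), against 37.2 to 106 CPM in subclusters 0, 2, 3, 4, 6 and 7, of which subcluster 4 held 1350 UMIs. By mouse it was at 468 and 276 CPM in mCherry SD, 742 and 739 in mCherry HFD, 515 and 282 in Tert HFD, and 598 and 481 in TertCi HFD. In the same order these rest on 12 and 24, 80 and 20, 101 and 94, and 175 and 53 nuclei. Within the subcluster the TertCi HFD values were thus below those of mCherry HFD. The subcluster made up 10.8 and 14.0% of macrophage-like nuclei in mCherry SD, 2.12 and 1.40% in mCherry HFD, 10.5 and 9.86% in Tert HFD, and 15.03 and 16.6% in TertCi HFD. The mCherry HFD shares were lower than all others, a comparison given without a test because the subclusters come from the same nuclei. The part of the subcluster's share in the Ccr2 result was not tested.

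In perivascular macrophage-like nuclei 2 of 9 members were called for TertCi, Ccl8 as given above and Ccl2, against 17.9% of genes (10.7% lower). Ccl2 stood at 23.1 and 16.6 CPM in mCherry HFD and 3.79 and 1.60 CPM in TertCi HFD, with 0 and 16.3 in mCherry SD and 14.5 and 5.20 in Tert HFD. Its change was -2.52 (edgeR adjusted p = 0.0101, SE 0.62), and it was not called without mCherry HFD mouse rep128 (-2.25) or TertCi HFD mouse rep138 (-3.51) or rep140 (-2.29), nor by DESeq2 (adjusted p = 0.0543). Ccl2 in this class lay below the free level in all 8 libraries, and the part of free RNA in its change was not tested. Without Tert HFD mouse rep134, which leaves mouse rep136 alone in its group, the Tert changes were -1.52 for Ccl6, -1.49 for Ccl9 and -2.76 for Ccr1. For TertCi the same fit also called Ccl6 (-0.96) and Ccl9 (-0.60). Without mouse rep136, Ccl6 (-0.93) was added for TertCi.

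In progenitor-like nuclei as a class Ccl2 and Ccl9 were also lower in TertCi HFD than in mCherry HFD. Ccl2 stood at 7.99 and 38.8 CPM in mCherry SD, 40.6 and 23.98 in mCherry HFD, 22.1 and 16.9 in Tert HFD, and 6.32 and 10.1 in TertCi HFD, so the mCherry SD mice spanned most of the range. Ccl2 fell for TertCi by 1.90 on the log2 scale (edgeR adjusted p = 0.0175, SE 0.47), which was not called without mCherry HFD mouse rep128 (-1.41) or TertCi HFD mouse rep138 (-1.47). Ccl9, at 12.2 and 18.1 CPM in mCherry HFD and 2.37 and 1.12 CPM in TertCi HFD (14 UMIs), changed by -2.62 (edgeR adjusted p = 0.00236, SE 0.47) and stayed called under all settings run. Cx3cr1 was at 11.5 and 16.4 CPM in mCherry HFD, 3.10 and 3.22 in Tert HFD, 2.17 and 1.68 in TertCi HFD, and 12.8 and 4.04 in mCherry SD. It changed by -1.94 for Tert (edgeR adjusted p = 0.0232, SE 0.49) and by -2.49 for TertCi (edgeR adjusted p = 0.00474, SE 0.51). The Tert call was lost without mCherry HFD mouse rep128 (-2.23) or rep129 (-1.70) or Tert HFD mouse rep134 (-1.76), and by DESeq2. The TertCi call was lost without TertCi HFD mouse rep138 (-2.70). With diet only Ccl6 was called, from 0 and 4.85 to 25.3 and 19.3 CPM (2.65, edgeR adjusted p = 0.0253, SE 0.68). It was not called without mCherry SD mouse rep144 (2.07) or mCherry HFD mouse rep128 (2.43), and without mouse rep146 the standard-diet group held 0 UMIs.

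This class too was made up of different clusters. In mCherry HFD 675 and 275 progenitor-like nuclei lay in cluster 12 and 448 and 160 in cluster 5, with Ccl2 at 40.4 and 32.4 CPM over all libraries. In TertCi HFD 845 and 288 lay in cluster 6, with Ccl2 at 9.70 CPM, and 32 and 16 in cluster 12. In cluster 5, where every library had at least 73 nuclei, Ccl2 stood at 8.52 and 58.6 CPM in mCherry SD, 44.6 and 25.8 in mCherry HFD, 20.6 and 46.1 in Tert HFD, and 15.4 and 23.2 in TertCi HFD. Ccl9 was at 13.8 and 19.7 CPM there in mCherry HFD and at 2.201 and 0 CPM in TertCi HFD, and Cx3cr1 at 10.7 and 16.7 against 1.47 and 0 CPM. These are values with no test, and the part of the make-up in the class's results was not tested.

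These were 1, 1 and 3 of the 7 members tested for diet, Tert and TertCi, against 12.4, 10.7 and 19.8% of 12159 genes (7.86% higher, 7.64% lower and 12.6% lower). Without any 1 of mCherry SD mice rep144 and rep146 and Tert HFD mice rep134 and rep136, Ccl6 (-1.28 to -1.30) and Ccl8 were also called for TertCi. The share of all genes called in these fits is not given. Ccl8 passed the filter on low counts in fits with a mouse removed only, through its UMIs in mCherry HFD, so it is given as counts. Without rep134, which leaves mouse rep136 alone in its group, Ccl6 changed by -2.55 for Tert. Ccl8 and Ccr1 had too few UMIs for a test over all 8 libraries. Ccl8 had 0 UMIs in both mCherry SD libraries, 64 in mCherry HFD, and 5 and 2 in the Tert HFD and TertCi HFD groups. Summed lipid-associated macrophage markers in these progenitor-like nuclei were 241 and 258 CPM in mCherry SD, 758 and 913 in mCherry HFD, 453 and 473 in Tert HFD, and 274 and 364 in TertCi HFD. The mean levels of Ccl2, Ccl6, Ccl9 and Cx3cr1 were likewise highest in mCherry HFD. None of these genes followed the markers' order among the remaining groups. The free level of Ccl2, Ccl6, Ccl9 and Cx3cr1 was also highest in mCherry HFD. Ccl6 and Ccl9 in progenitor-like nuclei lay below the free level in all 8 libraries, at up to 0.192 and 0.253 of it. Ccl2 and Cx3cr1 each exceeded it in 3 of 8. Their mean ratios to it were 0.457 and 0.708 in mCherry HFD, and 0.977 and 0.448 in TertCi HFD. The part of these markers and of free RNA in these results was not tested.

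In adipocyte-like nuclei as a class Ccl2 was higher with diet and lower for TertCi. It stood at 1.85 and 3.40 CPM in mCherry SD, 40.4 and 21.6 in mCherry HFD, 12.3 and 5.16 in Tert HFD, and 1.54 and 4.29 in TertCi HFD, on 205 and 62 nuclei in mCherry HFD. Its change was 3.30 with diet (edgeR adjusted p = 0.00381, SE 0.56) and -3.27 for TertCi (edgeR adjusted p = 0.00575, SE 0.54), and neither was called without mCherry HFD mouse rep128 (2.59 and -2.51) or with a class per nucleus (2.35 and -2.71). In this class Ccl2, Cxcl16 and Ccl6 lay below the free level in all 8 libraries. Cx3cr1 exceeded it in 3 of 8 libraries and lay below it in both of mCherry HFD, where it was 17.5 and 21.7 CPM. Cxcl16 rose with diet from 0.925 and 1.33 to 7.30 and 4.80 CPM (log2 fold change 2.195, edgeR adjusted p = 0.0223, SE 0.57), a call lost without mCherry SD mouse rep144 (2.00) or rep146 (2.38) or mCherry HFD mouse rep128 (1.64) and by DESeq2 (adjusted p = 0.108). Cx3cr1 rose from 3.70 and 2.52 to 13.8 and 19.2 CPM (2.03, edgeR adjusted p = 0.0109, SE 0.44), a call lost without mCherry SD mouse rep146 (1.60) or mCherry HFD mouse rep128 (2.28). Ccl6 was lower for TertCi (-1.36, edgeR adjusted p = 0.0356, SE 0.38), a call lost without mCherry HFD mouse rep128 (-0.95) or rep129 (-1.46) or TertCi HFD mouse rep138 (-1.18) or rep140 (-1.44).

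The class was made up of different clusters in the groups. In mCherry SD 383 and 624 of its nuclei lay in cluster 8, which held 4 and 4 of mCherry HFD, whose nuclei lay in cluster 7 (103 and 34) and cluster 10 (84 and 17). In TertCi HFD mouse rep138 927 lay in cluster 17. Within cluster 7 Ccl2 stood at 4.20 and 5.28 CPM in mCherry SD, 35.8 and 28.6 in mCherry HFD, 14.2 and 5.88 in Tert HFD, and 1.46 and 2.32 in TertCi HFD, where both mCherry HFD libraries were above the other 6. Cxcl16 there was at 1.68 and 3.08 CPM in mCherry SD and 10.6 and 8.16 in mCherry HFD. These are values with no test, and the part of the make-up in the class's results was not tested.

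These calls are 3 of 9 members for diet (2 by DESeq2) and 2 of 9 for TertCi, against 21.2% (12.8% higher) and 15.2% (9.0% lower) of 14845 genes. For Tert 0 of 9 were called by edgeR's quasi-likelihood test or by DESeq2, against 2.88% of genes, with 2 at an unadjusted p under 0.05, and Ccl2 was called at -1.62 without TertCi HFD mouse rep138 or rep140. Without Tert HFD mouse rep134 or rep136, Ccl9 was added for TertCi at -1.16 and -1.14, and without rep140 Ccl7 was called in place of Ccl6 at -2.69. Lipid-associated macrophage markers summed to 715 to 979 CPM in these nuclei in mCherry SD, 1868 to 2305 in mCherry HFD, 734 to 1538 in Tert HFD and 928 to 963 in TertCi HFD, and their part in these results was not tested. In endothelial-like nuclei, with mCherry SD mouse rep144 left out at 11 nuclei, 0 of the 5 members tested were called by edgeR or DESeq2 in any of the 4 contrasts, against 2.8, 9.0 and 16.7% of 7864 genes for diet, Tert and TertCi and 0.0254% for Tert against TertCi. At an unadjusted p under 0.05 there were 0, 1, 3 and 0. For TertCi, Ccl2 was called without Tert HFD mouse rep136 (-3.30, on 2 UMIs in TertCi HFD against 43 in mCherry HFD) and Ccl6 without TertCi HFD mouse rep140 (-1.01). Ccl2 passed the filter on low counts in only 2 of the fits with a mouse removed. It had 0 UMIs in mCherry SD and 13 in Tert HFD, so its UMIs lay mostly in mCherry HFD. Ccl8 and Cx3cr1 were not among the 5 and passed the filter only in some fits with a mouse removed. Of these, Ccl8 was called without rep136, and Cx3cr1 without rep136, rep140 or mCherry SD mouse rep146. They are given as counts, 33 and 51 UMIs in mCherry HFD against 1 and 4 in TertCi HFD.

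Tert HFD and TertCi HFD were then compared with each other. With all 8 mice and the filter on low counts, none of the members was called by edgeR or DESeq2 in any of the 7 populations, and the share of all genes called by edgeR was 0.0% in 6 of them. Over all nuclei 2 members had an unadjusted p under 0.05, and the smallest adjusted p was 0.461 (Ccl2, log2 fold change 1.39). Within macrophage-like nuclei there were also 2, with Ccr2 at -0.75 (unadjusted p = 0.00103 and adjusted p = 0.744 by edgeR) and lower in both Tert HFD mice. Ccl2 there was at 1.93 (adjusted p = 1.0 by edgeR). With no filter on low counts edgeR called Ccl2 (1.40) and Ccl8 (1.51) over all nuclei, against 1.43% of 38389 genes, Ccl2 in macrophage-like nuclei (1.94, against 0.0786% of 31798) and Ccl8 in perivascular ones (1.34, against 0.158% of 27231), all higher in Tert HFD. Whether the genotypes differ in these members thus depended on the filter. Without Tert HFD mouse rep136, Ccl8 was called higher in the remaining Tert HFD mouse than in TertCi HFD, by 1.90 in macrophage-like nuclei (edgeR adjusted p = 0.0271) and by 1.68 in perivascular ones (edgeR adjusted p = 0.0165), with the lone mouse assumed to vary like the other groups.

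Of the other genes of the pathway, 5 lists with 93 genes were tallied with the same fits, and their members moved in both directions. Over all nuclei, diet raised 4 of 10 tested other CC ligands and lowered 1, and raised 2 of 11 other CXC, XC and CX3C ligands, 7 of 17 other receptors (1 lower), 14 of 20 signalling genes and 7 of 19 adhesion and survival genes (1 lower). Their median log2 fold changes were 1.54, 0.47, 1.14, 0.91 and 0.15, against 0.05 for all genes, of which 22.3% were higher and 18.3% lower. For TertCi the counts lower were 6, 3, 6, 10 and 7, with 1, 0, 1, 1 and 1 higher and medians of -1.81, -1.08, -1.73, -0.65 and -0.35, against -0.10 for all genes (19.3% lower and 15.8% higher). For Tert they were 1, 1, 3, 3 and 2 lower and 0, 0, 1, 1 and 1 higher, with medians of -1.23, -0.43, -1.08, -0.28 and -0.20, against -0.05 (10.3% lower and 10.4% higher).

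Within macrophage-like nuclei the smallest adjusted p among the list genes was that of Rgs1 for diet, Tert and TertCi alike. It encodes a regulator that shuts off G-protein signalling below chemokine receptors. It stood at 7.72 and 6.25 CPM in mCherry SD, 232 and 190.5 in mCherry HFD, 68.7 and 41.8 in Tert HFD, and 42.2 and 39.9 in TertCi HFD, with no overlap between mCherry HFD and any other group. The changes were 4.78 with diet (edgeR adjusted p = 1.31e-06, SE 0.33), -1.73 for Tert (edgeR adjusted p = 0.000192, SE 0.19) and -2.16 for TertCi (edgeR adjusted p = 2.8e-05, SE 0.20). Rgs1 was among the leading genes of cluster 20, which held 1964 and 570 nuclei of mCherry HFD, 0 of mCherry SD and 67 and 6 of Tert HFD, and the part of this make-up in its change was not tested. Rgs2, of the same family, followed with 1.73, -0.98 and -1.21. Cmklr1, the receptor of chemerin, went the opposite way, at 185 and 194 CPM in mCherry SD, 78.3 and 71.7 in mCherry HFD, 156 and 120.1 in Tert HFD and 168 and 164 in TertCi HFD, with changes of -1.54, 1.05 and 1.34. The beta-arrestin gene Arrb1, which desensitises receptors, moved in the same directions as Cmklr1 by -0.86, 0.72 and 0.88. The 9 changes of Rgs2, Cmklr1 and Arrb1 all passed edgeR's threshold. Fits of these list genes with a mouse left out are not given here.

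Further genes named by the same rule changed in 1 or 2 contrasts. With diet the kinase gene Ptk2b (1.17) and the PI3K subunit Pik3r5 (0.67) were higher, and the adhesion genes F11r (-2.27) and Vcam1 (-1.95) and the G-protein subunits Gng2 (-0.66) and Gnb1 (-0.54) were lower. Cxcr6, the receptor of Cxcl16, and Ccr9 were called lower for both Tert and TertCi, while the scavenging receptor Ackr4 was lower for Tert (-2.26). Dock2 (0.57), Itgal (1.42) and F11r (1.48) were higher for Tert, and Itga4 (0.62), Gng2 (0.65) and Cxcl12 (1.41) were higher and Cxcl2 (-2.53) lower for TertCi. Cxcr6 and Ccr9 stood at 7.65 to 10.2 CPM in mCherry HFD and at 0 to 2.14 CPM in the 4 mice with Tert or TertCi. Among the HFD mice they stood above these low levels in mCherry HFD only, so they are given as levels without a fold change. Their calls are not read as a result, although the receptor counts below for Tert and TertCi include them. Their mCherry SD levels are not given here. By list, the counts higher and lower among the 6 other CC ligands, 5 other ligands, 8 receptors, 20 signalling genes and 17 adhesion and survival genes tested were 0 and 0, 0 and 1, 1 and 1, 4 and 3, and 0 and 3 with diet, beside 10.8 and 10.5% of all genes. They were 0 and 0, 0 and 0, 1 and 3, 4 and 2, and 2 and 0 for Tert (8.09 and 10.3% of all genes), and 1 and 1, 1 and 1, 1 and 3, 5 and 4, and 2 and 0 for TertCi (11.2 and 13.6%).

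Across the 8 macrophage-like samples, the genes whose level ran most like a member's (Pearson r of log2(CPM + 1) over 13730 genes) were Rtcb for Ccl8 (r = 0.99), Aimp2 for Ccl2 (0.98), Stab1, a scavenger receptor of resident macrophages, for Ccl6 (0.97), Prune2 for Ccl9 (0.99) and Gm45867 for Ccr2 (0.99). Tpgs2 (0.98) led for Ccl7, Cul2 (0.97) for Cxcl16, Mmgt1 (0.97) for Ccr1 and Gm34655 (0.99) for Cx3cr1. With 8 points that share depth and group, such values are frequent: 59 genes exceeded 0.95 for Ccl2, 36 for Ccl8 and 26 for Cx3cr1. They are given as descriptions.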

How the data were processed

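Nuclei were sorted from frozen visceral white adipose tissue and their RNA was counted by the 10x Genomics 3' method, per the labels' protocols. The authors deposited raw count matrices of UMIs per feature and barcode. The file headers name Cell Ranger 7.1.0 and the submitters' processing notes name Cell Ranger 5.0.1, bcl2fastq 2.20.0 and build mm39, so the version is unsettled. Per the labels, samples were processed in batches of 2 whose members are not given, so batch could not be tested.

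Barcodes were kept as nuclei at 500 UMIs or more and at least 0.1 of the 99th percentile reached among the 5000 barcodes with most UMIs, with 300 or more genes and at most 5% mitochondrial UMIs. Simulated-doublet scores set the removed share at 0.8% per 1000 nuclei. Nuclei were clustered with scanpy 1.11.5 (2000 variable genes without the members, 30 components, 15 neighbours, resolution 1.0) and classes named from raised marker genes. A class came from 3 or more markers raised 2-fold, and clusters past the rule for several classes were set apart as mixed. Counts were summed per class and library with at least 20 nuclei and tested across libraries with edgeR 4.0.16 (quasi-likelihood, robust, filterByExpr, TMM factors, all groups in 1 fit), with Benjamini-Hochberg adjustment over all genes tested and a threshold of 0.05. The edgeR step was tested on simulated data, where false calls ran above the nominal rate and smaller changes were often missed. CPM values are UMIs of a gene scaled to 1000000 UMIs of the class and library. Alternatives were DESeq2 1.42.0, RLE size factors, no filter, doublets kept, other depth and class rules, all barcodes, and each mouse left out. The use of barcodes of 100 UMIs or fewer as an alternative was chosen after seeing the data. Motif matching used RefSeq's upstream sequences.

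All members are described. Of the 5 lists of other pathway genes, those named are the 10 with the smallest adjusted p in macrophage-like nuclei for each contrast. Members and lists were chosen with earlier results of these data known.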

Additional observations from a re-analysis of the deposited data

Results flagged for a closer look

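Barcodes of 100 UMIs or fewer were outside the comparisons between nuclei, and 8 of the 9 members were higher there in both mCherry HFD libraries than in both mCherry SD libraries, as were 51.2% of the 15411 genes tested there. By edgeR 6 of them, Ccl2, Ccl6, Ccl9, Cxcl16, Ccr2 and Cx3cr1, were called there, against 34.7% of genes (19.7% higher), while Ccl8 (adjusted p = 0.0584) and Ccr1 (adjusted p = 0.189) did not pass edgeR's threshold. The mean level in mCherry HFD was 79.6 CPM for Ccl2, against 16.7 CPM in mCherry SD, and 59.1 CPM for Ccl8, against 1.30 CPM. Ccl6 was at 229 against 35.3 CPM and Ccl9 at 143 against 18.2 CPM. Cxcl16 was at 36.6 against 6.78 CPM. Among the receptors, Ccr1 was at 16.7 against 6.76 CPM, Ccr2 at 98.3 against 27.9 CPM and Cx3cr1 at 19.6 against 3.80 CPM. Ccl7 overlapped, at 10.1 and 30.5 CPM in mCherry HFD and 3.13 and 15.1 CPM in mCherry SD.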

How the results depend on the processing

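No paired analysis was possible because the groups share no replicate numbers. Of 33 calls of a member, RLE size factors and no filter on low counts kept all 33, DESeq2 30 (not Ccl2 in perivascular nuclei for TertCi, Cx3cr1 in progenitor-like nuclei for Tert or Cxcl16 in adipocyte-like nuclei for diet), doublets kept 27, and 1000 UMIs in every library with a class per nucleus 26. A class per nucleus kept 13 of 19, the members in the clustering 17 of 19, all barcodes 13 of 14 and barcodes of 100 UMIs or fewer 11 of 14. Not every call lost with doublets kept or under other depth and class rules is named beside its result above. Without mCherry HFD mouse rep128, 11 of 33 held, without TertCi HFD mouse rep138 21, without mCherry HFD mouse rep129 22 and without TertCi HFD mouse rep140 23. No called member changed direction. Depth limits classes of few nuclei, above all those of mCherry SD and Tert HFD mouse rep136. Where a value changed below, the cause was not tested, and no value of opposite sign belongs to a member called under the original settings. Counts at an unadjusted p under 0.05, by DESeq2 or under another setting lack the share of all genes called, except where it is printed. They therefore do not show whether the members or the whole fit changed. Each fit with a mouse left out holds 1 mouse in that group, assumed to vary like the other groups. At 1000 UMIs in every library with a class per nucleus, the count called was 3 in macrophage-like nuclei for diet, 0 in lipid-associated nuclei for Tert, 1 in lipid-associated nuclei for TertCi, 2 in perivascular nuclei for diet, 2 in perivascular nuclei for Tert, 4 in progenitor-like nuclei for diet, 6 in progenitor-like nuclei for TertCi and 3 in endothelial-like nuclei for TertCi. By DESeq2, the count called was 4 in all nuclei for Tert, 1 in macrophage-like nuclei for diet, 1 in perivascular nuclei for TertCi and 0 in progenitor-like nuclei for Tert. Over all barcodes, the count called was 4 for Tert. With a class per nucleus, the count called was 3 in macrophage-like nuclei for diet, 0 in lipid-associated nuclei for Tert, 3 in progenitor-like nuclei for Tert, 5 in progenitor-like nuclei for TertCi, 6 in endothelial-like nuclei for diet, 2 in endothelial-like nuclei for Tert and 6 in endothelial-like nuclei for TertCi. With the members in the clustering, the count called was 1 in macrophage-like nuclei for TertCi, 1 in lipid-associated nuclei for TertCi and 2 in progenitor-like nuclei for diet. With doublets kept, the count called was 2 in all nuclei for Tert, 1 in macrophage-like nuclei for TertCi, 0 in lipid-associated nuclei for Tert, 1 in adipocyte-like nuclei for TertCi and 1 in endothelial-like nuclei for TertCi. Without a filter on low counts, the count called was 5 in all nuclei for Tert, 2 in all nuclei for Tert against TertCi, 3 in macrophage-like nuclei for diet, 2 in macrophage-like nuclei for Tert, 1 in macrophage-like nuclei for Tert against TertCi, 2 in lipid-associated nuclei for Tert, 3 in lipid-associated nuclei for TertCi, 2 in perivascular nuclei for Tert, 1 in perivascular nuclei for Tert against TertCi, 2 in progenitor-like nuclei for diet, 3 in progenitor-like nuclei for Tert, 5 in progenitor-like nuclei for TertCi, 1 in adipocyte-like nuclei for Tert and 2 in endothelial-like nuclei for TertCi. In barcodes of 100 UMIs or fewer, the count called was 3 for Tert. At 1000 UMIs in every library with a class per nucleus, log2 fold changes of the opposite sign were 0.010 for Ccl6 in macrophage-like nuclei for diet, 0.24 for Ccl9 in macrophage-like nuclei for diet, 0.36 for Ccr2 in macrophage-like nuclei for diet, -0.068 for Ccr1 in macrophage-like nuclei for Tert and 0.11 for Ccl7 in progenitor-like nuclei for diet. By DESeq2, log2 fold changes of the opposite sign were -0.13 for Ccr1 in macrophage-like nuclei for Tert. With RLE size factors, log2 fold changes of the opposite sign were -0.0077 for Ccr1 in macrophage-like nuclei for Tert. With a class per nucleus, log2 fold changes of the opposite sign were 0.18 for Ccl9 in macrophage-like nuclei for diet, 0.35 for Ccr2 in macrophage-like nuclei for diet, -0.15 for Ccr2 in macrophage-like nuclei for Tert and 0.096 for Ccl7 in progenitor-like nuclei for diet. With the members in the clustering, log2 fold changes of the opposite sign were 0.048 for Ccr2 in macrophage-like nuclei for diet and -0.027 for Ccr2 in macrophage-like nuclei for Tert. With doublets kept, log2 fold changes of the opposite sign were 0.33 for Ccr2 in macrophage-like nuclei for diet, -0.076 for Ccr2 in macrophage-like nuclei for Tert and 0.27 for Cxcl16 in adipocyte-like nuclei for Tert. In barcodes of 100 UMIs or fewer, log2 fold changes of the opposite sign were -0.045 for Ccl7 for Tert. With each mouse left out in turn, the count called ran from 3 to 7 in all nuclei for diet, from 0 to 6 in all nuclei for Tert, from 1 to 7 in all nuclei for TertCi, from 0 to 4 in macrophage-like nuclei for diet, from 0 to 6 in macrophage-like nuclei for Tert, from 1 to 5 in macrophage-like nuclei for TertCi, from 0 to 1 in macrophage-like nuclei for Tert against TertCi, from 0 to 4 in lipid-associated nuclei for Tert, from 0 to 2 in lipid-associated nuclei for TertCi, from 1 to 4 in perivascular nuclei for Tert, from 1 to 4 in perivascular nuclei for TertCi, from 0 to 1 in perivascular nuclei for Tert against TertCi, from 0 to 2 in progenitor-like nuclei for diet, from 0 to 2 in progenitor-like nuclei for Tert, from 1 to 5 in progenitor-like nuclei for TertCi, from 0 to 3 in adipocyte-like nuclei for diet, from 0 to 1 in adipocyte-like nuclei for Tert, from 0 to 3 in adipocyte-like nuclei for TertCi and from 0 to 3 in endothelial-like nuclei for TertCi. Log2 fold changes that crossed 0 with a mouse left out ran from -0.19 to 0.91 for Ccl7 in all nuclei for diet, from -1.49 to 0.15 for Ccl7 in all nuclei for TertCi, from -2.18 to 0.019 for Ccl7 in macrophage-like nuclei for diet, from -0.66 to 0.16 for Ccl6 in macrophage-like nuclei for diet, from -0.28 to 0.25 for Ccl9 in macrophage-like nuclei for diet, from -0.95 to 1.11 for Ccl7 in macrophage-like nuclei for Tert, from -1.02 to 0.23 for Ccl6 in macrophage-like nuclei for Tert, from -1.14 to 0.021 for Ccl9 in macrophage-like nuclei for Tert, from -1.41 to 0.0996 for Cxcl16 in macrophage-like nuclei for Tert, from -1.98 to 0.62 for Ccr1 in macrophage-like nuclei for Tert, from -0.025 to 0.46 for Ccr2 in macrophage-like nuclei for Tert, from -1.50 to 0.049 for Ccl7 in macrophage-like nuclei for TertCi, from -0.65 to 0.027 for Ccl6 in macrophage-like nuclei for TertCi, from -0.36 to 1.76 for Ccl2 in progenitor-like nuclei for diet and from -0.25 to 1.55 for Cx3cr1 in progenitor-like nuclei for diet.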

Other observations

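Among macrophage-like nuclei, Ccl2 was highest in subcluster 6, whose leading genes Top2a, Kif11, Kif15 and Knl1 act in cell division. Its 431 nuclei held Ccl2 at 60.7 CPM (198 UMIs, exact Poisson 95% interval 52.6 to 69.8, for counting error only), and 328 and 66 of them came from mCherry HFD mice rep128 and rep129, where the level was 63.0 and 54.7 CPM. The near-empty barcodes of those libraries stood at 60.4 and 98.8 CPM, and their part in this level was not tested. Cxcl16 was highest in subcluster 8, 25 nuclei led by Mreg, Ly75 and Il12b, at 289 CPM from 36 UMIs (interval 203 to 400), with 12 and 8 of the nuclei from mCherry HFD. Both are values with no test, and the subclusters were singled out after their values were seen.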
